A study of Mus musculus with 8 samples.

Results

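Complement genes were followed in whole retinas of aged mice through the probes of 9 genes, C1qa, C1qb, C1qc, C3, C4b, Cfb, Cfd, Serping1 and Masp2, a set named with earlier results of these data known. The accession on the array tied 15 probes to these genes, and 12 of the 15, standing for 8 of the 9 genes, were among the 37085 probes retained for testing. RNA from 4 samples of homozygous Mrp4 knockout mice and 4 samples of wild-type mice was hybridized in 1 color (Cy3), with 1 array per sample. According to the labels, all mice were 46 to 55 weeks of age. Per the study's methods, the knockout had a C57BL/6J genetic background and was a line obtained from another laboratory. The labels name no treatment for either genotype. The methods name tissue from 3 mice, and it is not clear from them whether a sample pooled animals, so each p-value measures the spread between these samples.

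Of the 56605 probes, 65.97% to 69.92% cleared the background on any 1 array, and the 75th percentile of the signal lay between 678 and 1082. The rod markers that define the retina, among them Sag and Gnat1, were all retained, and their mean log2 signal was 16.34 to 16.46 on the 8 arrays. The 8 arrays shared 1 slide and each genotype filled a row, so row and genotype cannot be told apart. Abcc4, the gene that encodes MRP4, gave 10.75 ± 0.09 (SD, n = 4) under the Mrp4-null label, against 6.83 ± 0.29 (SD, n = 4) in wild-type samples (adjusted p = 1.36e-05 from limma), which is the opposite of what the label of a knockout states. Where the probe lies relative to the deleted part is not given in the sources used here. Directions below therefore follow the labels as deposited, and a positive log2 fold change means a higher signal on the arrays labelled Mrp4-null.

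Complement is a cascade of plasma and tissue proteins that marks microbes, debris and synapses for removal. C1q, built from the products of C1qa, C1qb and C1qc, opens the classical pathway, while MASP2 is the serine protease that opens the lectin pathway by cleaving C4 and C2. Both routes meet at C4 and C3, factor B and factor D drive the alternative pathway, and the C1 inhibitor encoded by Serping1 restrains the proteases of C1 and the MASPs. In nervous tissue, including the retina, microglia and macrophages are the main source of C1q, and glia are known to raise C3, C4b and Serping1 in injury and inflammation.

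Promoters from RefSeq (GRCm38.p6) are shown for the gene that passed the test, Masp2, and for the recognition and central components that did not, C1qb, C1qc and C3. Each run holds 250 bases before and 50 bases after the annotated start, and 5 of the 9 genes had an entry. Capitals mark matches, on either strand, to GAGGAA (the core recognized by the myeloid factor PU.1), TTGCNNAA (C/EBP), TTCNNNGAA (STAT) and TATAAA (the box of the general factor TBP).
Masp2, chr4:148602294-148602593, plus strand: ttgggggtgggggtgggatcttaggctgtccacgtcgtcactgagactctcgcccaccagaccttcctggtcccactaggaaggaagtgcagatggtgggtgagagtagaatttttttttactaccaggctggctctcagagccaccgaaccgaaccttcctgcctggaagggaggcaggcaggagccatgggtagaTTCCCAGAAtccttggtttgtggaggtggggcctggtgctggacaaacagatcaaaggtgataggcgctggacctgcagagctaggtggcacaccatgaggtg
C1qb, chr4:136886151-136886450, minus strand: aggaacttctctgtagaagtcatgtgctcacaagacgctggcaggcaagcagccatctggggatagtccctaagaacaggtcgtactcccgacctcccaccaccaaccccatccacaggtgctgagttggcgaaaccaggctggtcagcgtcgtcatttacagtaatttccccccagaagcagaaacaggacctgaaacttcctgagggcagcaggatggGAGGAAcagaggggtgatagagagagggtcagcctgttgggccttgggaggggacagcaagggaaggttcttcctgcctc
C1qc, chr4:136892865-136893164, minus strand: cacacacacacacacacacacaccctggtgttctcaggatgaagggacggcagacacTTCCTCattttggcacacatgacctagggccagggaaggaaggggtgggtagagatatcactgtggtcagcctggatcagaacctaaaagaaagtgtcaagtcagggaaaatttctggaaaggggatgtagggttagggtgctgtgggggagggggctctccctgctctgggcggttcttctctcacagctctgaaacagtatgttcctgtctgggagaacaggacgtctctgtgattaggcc
C3, chr17:57228087-57228386, minus strand: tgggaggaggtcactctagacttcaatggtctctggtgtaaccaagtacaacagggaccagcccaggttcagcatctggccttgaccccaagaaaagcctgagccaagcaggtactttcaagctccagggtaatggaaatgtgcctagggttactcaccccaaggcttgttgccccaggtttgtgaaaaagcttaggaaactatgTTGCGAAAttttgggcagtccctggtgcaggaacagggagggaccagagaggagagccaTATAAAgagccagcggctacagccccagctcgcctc

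The PU.1 core stood in the C1qb window at bases 221 to 226 and, on the opposite strand, in the C1qc window at bases 58 to 63. It was also present in 28.3% of all 32851 promoters of this length. The C3 window held the C/EBP letters at bases 206 to 213, found in 10.8% of promoters, and TATAAA at bases 265 to 270, found in 13.6%. In the Masp2 window the STAT letters, present in 8.3% of promoters, lay at bases 198 to 206. The core of the interferon response element was also searched, and it matched none of the 4 windows and 3.44% of all promoters. No other motif was searched, no matches overlapped in these windows, and these matches are descriptions of the sequence.

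Of the 9 genes, Masp2 was the 1 that passed limma's test between the genotypes. It was already known to differ in these data when the genes were named, so its call is not independent support. All 3 of its probes gave more signal under the Mrp4-null label, with fitted folds of 4.07 to 6.36. The wild-type level was near background in 2 of the 3 probes, and with normexp background correction the log2 fold changes were 0.73 to 1.21 in place of 2.02 to 2.67. Limma called 3 of the 12 complement probes, all of Masp2 and all higher, beside 0.545% of all retained probes called in either direction and 0.256% higher. Of these 3, A_52_P569276 and A_55_P1990500 were retained only through the arrays labelled Mrp4-null, on which they were higher, so the count of 3 is no support by itself. With probes required to be well above background on all 8 arrays, 1 complement probe was called, A_55_P2185504 of Masp2 at 2.09 (adjusted p = 0.000445 from limma). The other 9 probes were not called by limma, nor by the local pooled error (LPE) test named in the study's methods when its p was adjusted by Benjamini-Hochberg. With an unadjusted LPE p under 0.05 and 1.5-fold or more, which 1.42% of all retained probes passed, 1 probe of C3 and both of C4b passed too, at folds of 2.17, 1.53 and 1.64, or 1.35, 1.23 and 1.34 without the third array labelled Mrp4-null. These 9 probes belong to C1qa, C1qb, C1qc, C3, C4b, Cfb and Serping1, and each of them had its highest value on the third array labelled Mrp4-null.

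**Figure D1:**
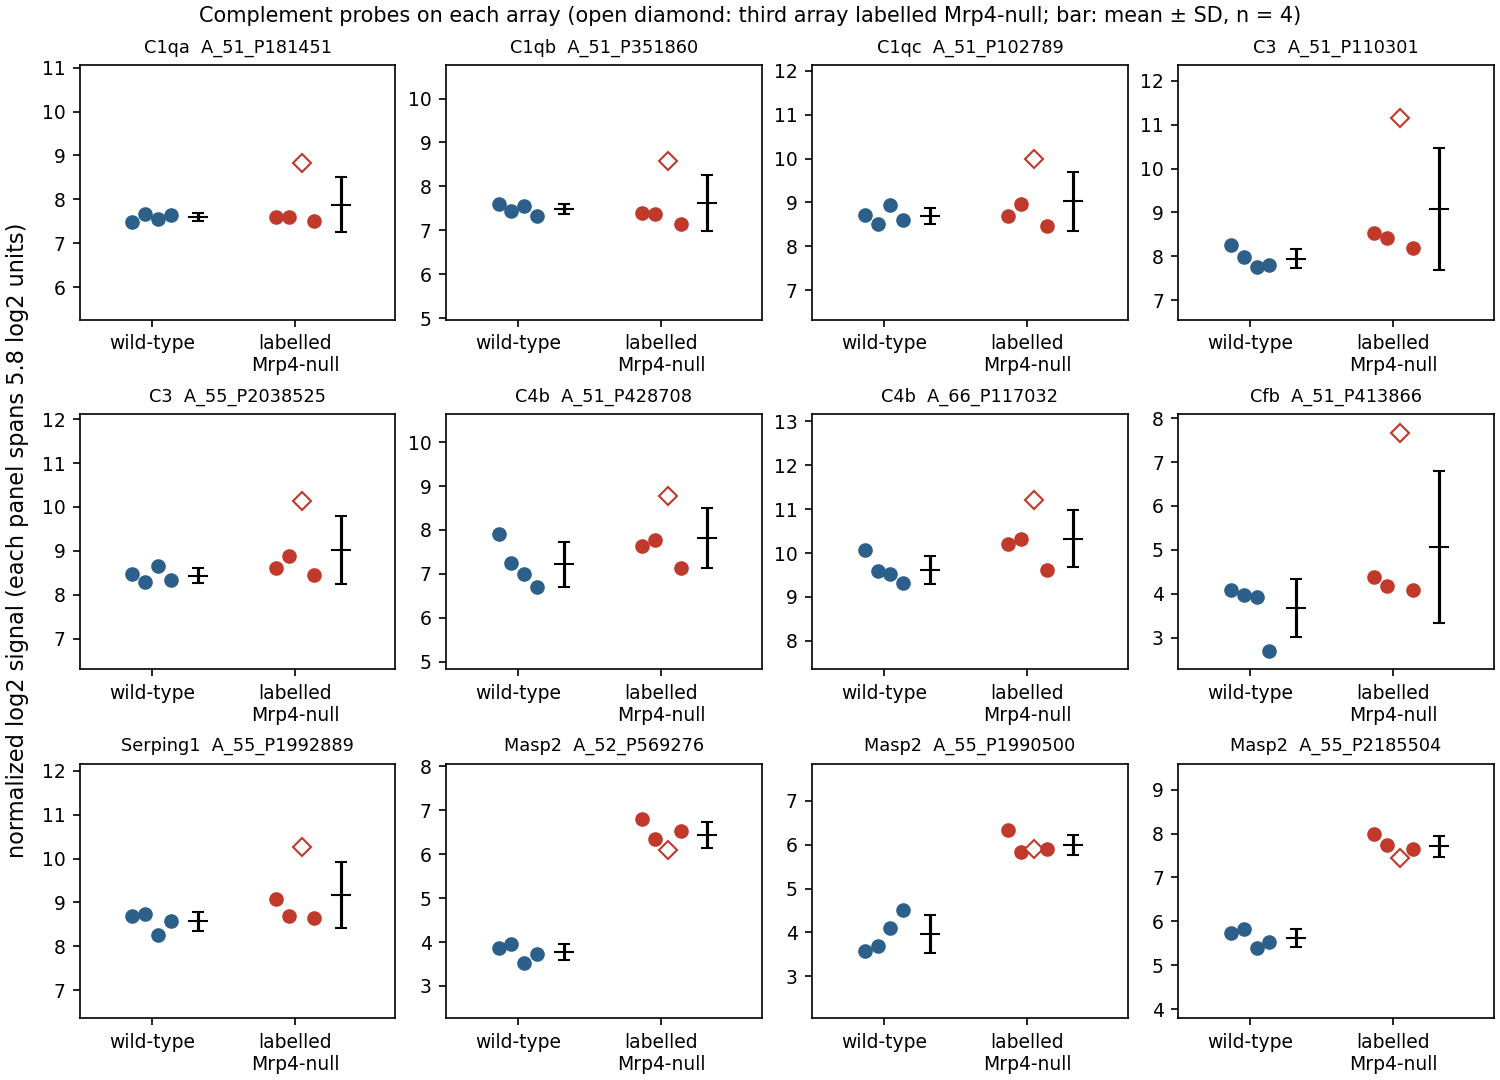
Normalized log2 signal of the 12 retained complement probes on each array, 1 panel per probe, with wild-type arrays in blue and arrays labelled Mrp4-null in red. Bars give the mean ± SD (n = 4), the open diamond is the third array labelled Mrp4-null, and it lies above all other arrays in the 9 panels other than those of Masp2.

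C1q, the recognition molecule of the classical pathway, did not differ between the genotypes beyond the spread of the arrays. On arrays 1 to 4 of each genotype, in that order here and below, C1qa gave 7.59, 7.61, 8.83 and 7.50 under the Mrp4-null label, against 7.49, 7.68, 7.55 and 7.65 in wild-type samples. C1qb gave 7.39, 7.38, 8.57 and 7.15 against 7.60, 7.45, 7.55 and 7.33. For C1qc the values were 8.70, 8.96, 9.996 and 8.46 against 8.71, 8.52, 8.94 and 8.60. In all 3 genes 1 array stood apart, the third labelled Mrp4-null, and the other 7 overlapped. The log2 fold changes were 0.29 for C1qa (standard error 0.27, 95% interval -0.33 to 0.91), 0.14 for C1qb (standard error 0.28, interval -0.50 to 0.78) and 0.34 for C1qc (standard error 0.30, interval -0.35 to 1.02), each with an adjusted p of 1.00 from limma. Without the third array labelled Mrp4-null they were -0.03, -0.18 and 0.01, so that C1qa and C1qb changed sign.

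Serping1, whose product inhibits C1r, C1s and the MASPs, showed the same array apart. Its values were 9.09, 8.69, 10.27 and 8.65 under the Mrp4-null label, against 8.69, 8.74, 8.26 and 8.59 in wild-type samples. Limma gave a log2 fold change of 0.60 with a standard error of 0.33 (adjusted p = 0.929), and 0.24 without the third array labelled Mrp4-null.

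C4b and C3, at which the classical and lectin routes converge, were each read by 2 probes, and none of the 4 was called. Probe A_66_P117032 of C4b gave 10.20, 10.31, 11.20 and 9.60 under the Mrp4-null label, against 10.06, 9.58, 9.52 and 9.32 in wild-type samples. Probe A_51_P428708 of the same gene gave 7.64, 7.77, 8.77 and 7.13 against 7.90, 7.25, 7.01 and 6.70. The genotypes overlapped in both probes, and the first wild-type array lay among the values labelled Mrp4-null. In limma, C4b had log2 fold changes of 0.71 (standard error 0.31) and 0.61 (standard error 0.36), with adjusted p = 0.773 and 0.959, or 0.42 and 0.30 without the third array labelled Mrp4-null. The former had an unadjusted p of 0.0497, below the 0.05 that 6.46% of all retained probes passed. Mouse C4a is a close copy of C4b, and how far their probes share targets was not tested.

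Of C3, the central component that all routes cleave, both probes were highest on the third array labelled Mrp4-null, but by different amounts. Probe A_51_P110301 gave 8.53, 8.42, 11.14 and 8.20 under the Mrp4-null label, against 8.26, 7.98, 7.77 and 7.80 in wild-type samples. Probe A_55_P2038525 gave 8.60, 8.88, 10.13 and 8.45 against 8.46, 8.28, 8.67 and 8.34. On the array that stood apart the probes were above the mean of the other 7 arrays by 3.01 and 1.61, respectively. In limma the log2 fold changes were 1.12 (standard error 0.59) and 0.58 (standard error 0.33), with adjusted p = 0.907 and 0.945. They were 0.43 and 0.21 without that array, where the adjusted p of the former was 0.704.

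Of the alternative pathway, factor B and factor D gave little signal over background. Factor B, encoded by Cfb, gave 4.38, 4.17, 7.67 and 4.09 by probe A_51_P413866 under the Mrp4-null label, against 4.10, 3.97, 3.93 and 2.71 in wild-type samples, 2 of which were well above background. This probe was retained only through the arrays labelled Mrp4-null, on which its mean was higher. In limma, the log2 fold change stood at 1.40 (standard error 0.77, adjusted p = 0.928). It was 0.55 under normexp and 0.54 without the third array labelled Mrp4-null. Probe A_66_P138911 of Cfb was not retained. Its processed intensity was 44.8 on that array, where it was well above background, and 2.80 to 4.80 on the other 7, where it was not. Factor D, encoded by Cfd and best known from fat cells, had 2 probes, neither of them well above background anywhere, with processed intensities of 2.34 to 3.96, so no fold change is given for it.

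**Figure D2:**
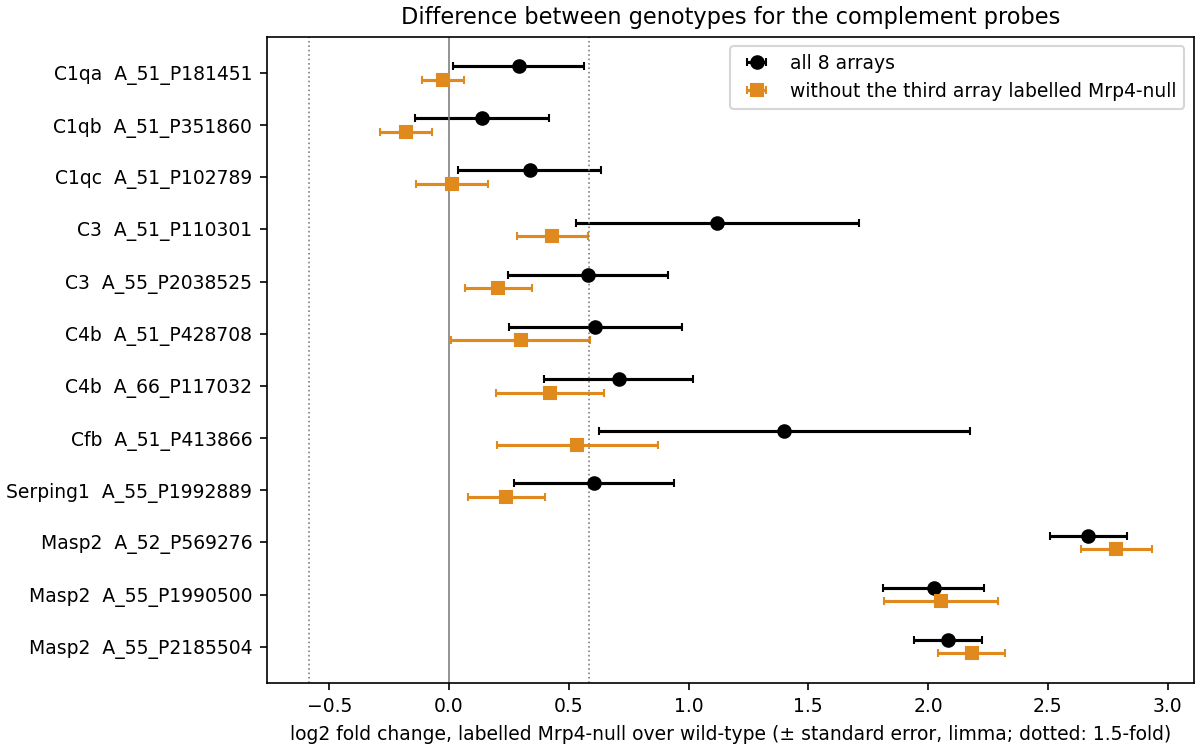
Log2 fold change, labelled Mrp4-null over wild-type, of the 12 retained complement probes with all 8 arrays (black circles) and without the third array labelled Mrp4-null (orange squares). Bars are standard errors from limma and dotted lines mark 1.5-fold. The 3 Masp2 probes stay at or above 2.02 in both fits. Each of the other 9 had its highest value on the third array labelled Mrp4-null, so its lower value without that array follows from this.

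Masp2 was the exception to that arrangement of arrays. Probe A_52_P569276 gave 6.80, 6.34, 6.09 and 6.53 under the Mrp4-null label, against 3.87, 3.96, 3.53 and 3.74 in wild-type samples. Probe A_55_P1990500 gave 6.33, 5.85, 5.90 and 5.89 against 3.57, 3.70, 4.09 and 4.51, and probe A_55_P2185504 gave 8.00, 7.73, 7.44 and 7.66 against 5.74, 5.82, 5.39 and 5.53. In all 3 probes the lowest sample labelled Mrp4-null exceeded the highest wild-type sample, an arrangement that 2.44% of all retained probes showed. It is no support by itself, because Masp2 was known to differ when the genes were named. A_52_P569276 and A_55_P1990500 were also retained only through the arrays labelled Mrp4-null. The third array labelled Mrp4-null was the lowest of its genotype in 2 of the 3 probes. The files assign A_52_P569276 to one Masp2 transcript and the other 2 probes to another.

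The log2 fold change of Masp2 was 2.67 (standard error 0.16) for A_52_P569276, 2.02 (standard error 0.21) for A_55_P1990500 and 2.08 (standard error 0.14) for A_55_P2185504. The adjusted p values from limma were 0.000175, 0.00366 and 0.000365. The 95% intervals were 2.30 to 3.03, 1.55 to 2.50 and 1.76 to 2.41. All 3 probes were also called after any 1 array was left out, with values from 1.90 to 2.79, and without the third array labelled Mrp4-null 0.433% of all retained probes were called. In the wild-type samples the first of these probes was well above background on 2 arrays and the second on 3, whereas A_55_P2185504 was above it on all 8. Normexp with an offset of 50 gave 0.92, 0.73 and 1.21, all still called. With the sample number as a block, A_55_P1990500 was not called (adjusted p = 0.0702 from limma).

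Limma called no other gene of the system. Of 53 further complement genes, 31 had a retained probe, and 0 of these were called. The LPE test with Benjamini-Hochberg adjustment called 1, beside 0.623% of all retained probes, and with unadjusted p it called 2, beside 1.42%. Over their 37 probes the median log2 fold change was 0.01, beside -0.01 over all retained probes, and 21 of the 37 were positive. Unadjusted p was below 0.05 in limma for 3 of the 37 probes, beside 6.46% of all retained probes, so their number is not a result about these genes. All 3 had negative values, and none was called by limma. They were Csmd1, which encodes a large membrane protein with complement control domains, at -1.18 (standard error 0.22, adjusted p = 0.0705), Cd55, the decay accelerating factor, at -0.78 (standard error 0.22, adjusted p = 0.344), and C8g, the gamma chain of C8, at -0.23 (standard error 0.08, adjusted p = 0.514). The probe called by the LPE test was that of Csmd1, and with unadjusted p C4a was the other. C4a was at 0.68, or 0.32 without the third array labelled Mrp4-null. The probe of Cd55 was dim and was retained only through the wild-type arrays, on which it was higher. Its value was -0.16 under normexp.

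By role, 8 further genes were listed with the classical pathway, and all had a retained probe. Among the 8, C1qbp (0.01) and Calr (0.07) encode proteins that bind C1q and are not components of the pathway itself. The 8 genes had log2 fold changes from 0.01 to 0.68. Their median was 0.23, or 0.07 without the third array labelled Mrp4-null. C1ra and C1s1, the proteases carried by C1q, were among them, at 0.52 (standard error 0.44) and 0.28 (standard error 0.28), or 0.02 and 0.08 without that array. Cfp, which encodes the alternative pathway's stabilizer properdin, was above background on all 8 arrays by both of its probes, at 0.15 (standard error 0.12) and 0.06 (standard error 0.09). Of 11 genes of the lectin pathway and other recognition proteins, 3 were retained, at -0.18 to 0.07. The lectins Mbl1 and Mbl2, the ficolins Fcna and Fcnb, and the related protease Masp1 were not retained. The 11 probes of membrane regulators lay between -1.18 and 0.04, 2 of them positive. The 5 retained receptors, including Itgam and Itgb2 of complement receptor 3, lay between -0.17 and 0.26. Of 7 genes of the terminal pathway, which forms the membrane attack complex, C7 and C8g were retained. Among the 37 probes, 13 were highest on the third array labelled Mrp4-null, beside 10.7% of all retained probes and 9 of the 12 above. C1ra was above the mean of the other 7 arrays there by 2.00, C4a by 1.63, Itgb2 by 1.23 and Cfi by 0.93.

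The same array was also highest in lists of marker genes for cells that make complement. The mean of 14 retained genes of microglia and macrophages was 9.43 there, 8.51 to 8.70 on the other arrays labelled Mrp4-null and 8.65 to 8.73 on the wild-type arrays, and 14 of the 17 probes were highest on it. The mean of 10 genes of reactive glia was 10.93 there, 8.73 to 8.81 on the others with that label and 8.49 to 8.89 on the wild-type arrays, and 16 of 18 probes were highest on it. Lcn2, Serpina3n and Edn2, which glia or photoreceptors induce after injury, were above the mean of the other 7 arrays by 4.95 (the higher of 2 Lcn2 probes), 4.35 and 3.57, and Gfap, the intermediate filament of astrocytes and activated Muller cells, by 1.71 and 1.33. The mean of the 3 C1q genes was 9.13 on that array, 7.70 to 7.98 on the others labelled Mrp4-null and 7.86 to 8.01 on the wild-type arrays. In contrast, the Muller glia list ran from 13.17 to 13.35 with that array inside the range. The mean of 3 blood genes was 11.12 there and 11.08 on the first wild-type array, with 10.09 to 10.70 on the other 6. The lens list had a mean of 6.24 to 9.17 under the Mrp4-null label and 7.82 to 10.45 in wild-type samples, a difference of -1.58, with 12 of 12 probes called lower by the LPE test with adjusted p and 0 by limma. The mean of 6 fibroblast genes was 6.95 to 7.34 against 6.49 to 6.89, but limma called 0 of their 7 probes, 3 of the 7 were positive (Fbln1 at 1.30, Ogn at 0.74 and Col1a2 at 0.66), and Dcn, Pdgfra and both probes of Col1a1 lay between -0.23 and -0.0038. The mean of 3 fat cell genes was 6.66 to 6.80 against 6.95 to 7.35, and limma called both probes of Retn lower, at -1.11 (standard error 0.11) and -1.29 (standard error 0.13), while the 2 probes of Adrb3, at -0.32 and -0.08, and that of Lep, at 0.13, were not called and Adipoq and Cidec were above background on no array. Of 6 liver markers, Alb, Apoa1, Serpina1a, Fgb and Ahsg were above background on no array, and Apoa2 was above it on all 8, with 2 probes at -0.09 and -0.01. In whole tissue, more cells of a type and more RNA per cell cannot be told apart, and the part of these markers in the complement values was not tested.

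**Figure D3:**
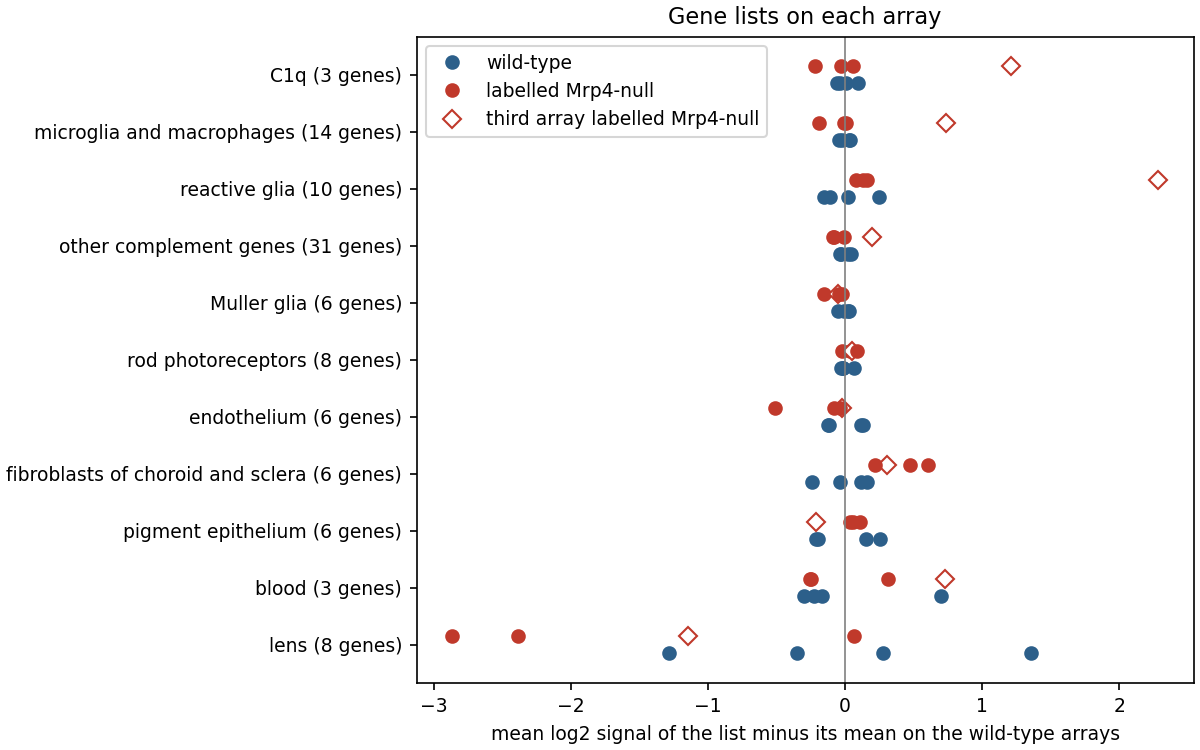
Mean log2 signal of each gene list on each array, minus its mean over the 4 wild-type arrays, which is 0 on the horizontal axis. Blue points are wild-type arrays, red points arrays labelled Mrp4-null, and the open diamond the third of these, which stands apart in the C1q, microglia and reactive glia lists and not in those of rods, Muller glia or endothelium.

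The spread within a genotype followed the same array. Over the 12 complement probes the median SD was 0.67 under the Mrp4-null label, against 0.21 in wild-type samples, and it was 0.23 for the former without the third array. Over all retained probes the medians were 0.19 and 0.16 with all arrays. All 12 log2 fold changes were positive with a median of 0.66, beside 46.8% positive among all retained probes. Without that array 10 of the 12 were positive, with a median of 0.36, beside 48.2% of all. A_52_P569276 and A_55_P1990500 of Masp2 and A_51_P413866 of Cfb were retained only through the arrays labelled Mrp4-null, on which their means were higher. Masp2 was also known to differ when the genes were named, so these counts are no support by themselves. The 9 probes outside Masp2 had a median of 0.60, or 0.24 without the third array labelled Mrp4-null. Pearson's r across the 8 arrays ran from 0.74 to 0.98 over the 36 pairs of the 9 probes outside Masp2, with a median of 0.90, and the median was 0.34 over the other 7 arrays. These points share arrays and normalization. The 3 Masp2 probes correlated with each other at 0.94 to 1.00, and at 0.93 to 1.00 without that array, values that include the difference between the genotypes.

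The pattern of C1q over the arrays was set against that of other genes, as a description. Among 23632 named probes, the mean of the C1q probes correlated best with H2-Ab1, a chain of MHC class II (r = 1.00, n = 8 arrays), Axl, a receptor tyrosine kinase for the uptake of dying cells (0.99), the interferon-induced Oasl2 and Ifi35 (0.99 each), and the MHC class I gene H2-Q10 (0.99). Without the third array labelled Mrp4-null, r was 0.95, 0.92, 0.77, 0.80 and 0.70. On that array H2-Ab1 stood 2.23 above the mean of the other 7. The probes of Masp2 had other neighbours in pattern. A_52_P569276 and A_55_P2185504 shared E2f2, Myom2, Gm36157 and Abcc4 among their closest 5 (r = 0.99 to 1.00, n = 8), with Rb1 for the former and Kdf1 for the latter, and limma called each of these genes. A_55_P1990500 was closest to Sycp1, Cys1, Pdzd8, Rnaseh2a and Adm2 (r = 0.97 to 0.98, n = 8), of which limma called Sycp1 and Pdzd8 and not the other 3. For the Masp2 probes, r over the 8 arrays includes the large difference between the genotypes. It therefore does not show likeness within a genotype, which was not tested.

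The C1q genes and Masp2 both lie on chromosome 4, and their neighbours were read in the order of the gene table. The nearest retained gene on one side, Srm, which encodes spermidine synthase, had 3 probes at -0.20 to -0.03, and the nearest on the other, Tardbp, which encodes the RNA-binding protein TDP-43, had 4 probes at -0.13 to -0.06, and none was called. Of 41 probes of the 10 genes on each side of Masp2, limma called 2, beside 0.545% of all retained probes. Unadjusted p was below 0.05 for 10 of the 41, beside 6.46% of all, and the genotypes did not overlap in 7, beside 4.79% of all. Cort, the neuropeptide cortistatin, was higher at 1.39 (standard error 0.16, adjusted p = 0.00583) and 0.99 under normexp, within the 0.73 to 1.21 of the Masp2 probes under that setting, and 1 probe of Fbxo44, of an F-box protein, was lower at -0.65 (standard error 0.10, adjusted p = 0.0293). The Fbxo44 call was lost in 7 of the 8 fits that left out an array.

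Around the C1q genes the nearest retained neighbours, the ephrin receptors Ephb2 (0.03 and 0.11) and Epha8 (0.17), were not called. Of 33 probes of the 10 genes on each side, 5 in 4 genes were called, beside the same 0.545%. Both probes of E2f2, a cell cycle transcription factor, were higher at 1.96 (standard error 0.14) and 2.68 (standard error 0.19), and Asap3 was higher at 1.26 (standard error 0.09), with adjusted p = 0.000429, 0.000384 and 0.000436 from limma. In wild-type samples the E2f2 probe at 2.68 cleared the background on 2 arrays, and it was retained only through the arrays labelled Mrp4-null, so it adds no support to the count, and the values of the 2 probes under normexp were 1.20 and 1.02. Lower were 1 probe of Hnrnpr at -0.77 (adjusted p = 0.00549) and Htr1d at -0.63 (adjusted p = 0.0328, a call lost in all 8 fits that left out an array). Between the C1q genes and Masp2 the table held 121 genes with 176 retained probes, of which 9 were called, 5 higher and 4 lower. On the whole of chromosome 4, 28 of 1552 retained probes were called, 18 of them higher, again beside 0.545% over all chromosomes.

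**Figure D4:**
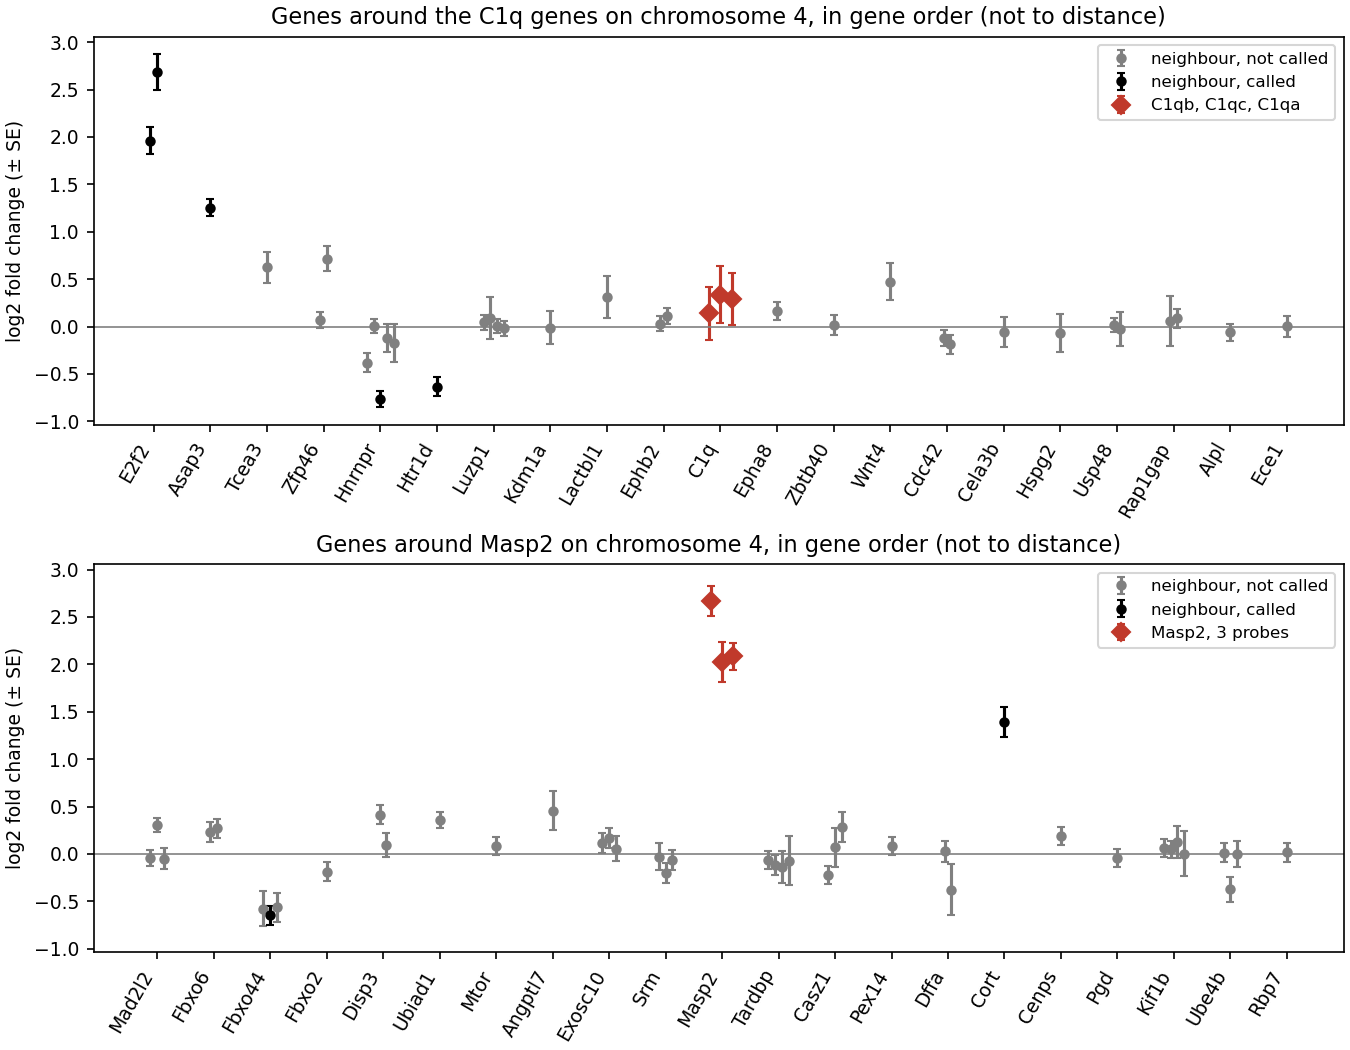
Log2 fold change, labelled Mrp4-null over wild-type, of retained probes around the C1q genes (top) and Masp2 (bottom), in gene order along chromosome 4 and not to distance. Red diamonds are the complement genes, black points called neighbours and grey points neighbours not called, with standard errors from limma, and the 3 Masp2 probes at 2.02 to 2.67 stand between Srm and Tardbp, whose probes lie at -0.20 to -0.03.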

How the data were processed

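The authors deposited, per array, scanner output of Agilent Feature Extraction 11.0.1.1, whose spot intensity is corrected for background and spatial trend array by array, with no normalization across arrays. Their table of values, set against this output, held the same linear intensity (all probes within 0.1%), not centred.

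Samples were grouped by the genotype in the labels. Control and outlier spots (78 to 143 per array) were left out, and no spot was saturated. Probes were kept if every measured array of a genotype was well above background, given 3 or more measured arrays in it and 2 or more in the other genotype. Log2 values of retained probes were quantile-normalized, as in the study's methods. Genotypes were compared with limma 3.58.1 in R 4.3.3, with Benjamini-Hochberg adjustment over all 37085 retained probes, and calling required a 1.5-fold difference or more with adjusted p under 0.05. Each probe was read separately. Signal over background and the number of arrays limit the precision. On simulated data with 200 of 37075 probes changed, limma recovered 90.0% with 13 false calls, and the LPE test written for this work recovered 97.5% with 173 false calls. The planted log2 changes were 1.5 or 2 in size, in either direction, with independent normal noise and no array set apart. These rates therefore do not measure the recovery of smaller changes or of probes with 1 outlying array.

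Accessions matched the gene table, of GRCm38.p6, for 32994 probes (58.3%). The array design is of another build, so the table served only for names and order. Promoter coordinates are those of the RefSeq table. Scanner files lacked mean signals, so normexp used medians. Alternatives were other normalizations, background corrections, filters, value sources, tests and thresholds, a replicate block and each array left out. Named genes are the members, further complement genes called or with unadjusted p under 0.05, called and nearest neighbours, the 5 genes most correlated with C1q or a Masp2 probe, Abcc4 and defining markers. Other named genes were chosen after their values were seen. Members and lists were chosen with earlier results of these data known. The soluble regulators of complement are not reported here as a group.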

Additional observations from a re-analysis of the deposited data

Results flagged for a closer look

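A value was marked when, within a genotype of 4 arrays, its distance from the next array, as a share of the genotype's range (the ratio given here), exceeded Dixon's 95% critical value for 4 values, which chance gives in about 1 of 20 groups. Of 54 groups screened 11 passed, and of 24 groups of complement probes 6 passed. The third array labelled Mrp4-null stood apart for C1qa (8.83, ratio 0.921), C1qb (8.57, ratio 0.834), the C3 probe A_51_P110301 (11.14, ratio 0.888) and Cfb (7.67, ratio 0.918), and for the mean of the reactive glia list (10.93, ratio 0.963). Cfb was also low on the fourth wild-type array (2.71, ratio 0.882), and Masp2 by A_55_P1990500 was high on the first array labelled Mrp4-null (6.33, ratio 0.887). Outside the complement genes, the first wild-type array was high in the means of rod markers (16.44, ratio 0.832) and blood markers (11.08, ratio 0.869). The second array labelled Mrp4-null was low in the mean of endothelial markers (8.35, ratio 0.882) and in the 75th percentile of the signal (678, ratio 0.846).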

How the results depend on the processing

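The 3 Masp2 probes were called under each alternative other than 2 settings. Requiring signal above background on all 8 arrays kept 1 of them in the test, which was called (1 complement probe), and with the replicate block 2 were called. Same-numbered arrays had correlations of -0.29, -0.69, 0.03 and 0.41 between their deviations from the genotype means. With 4 arrays per genotype, these values cannot decide whether the sample numbers pair the arrays. With this block, 71 probes were called in all (30 higher, 41 lower) and 4 neighbours of C1q and Masp2, against 202 (95 and 107) and 7 without it. Among further complement genes, 1 was called by the LPE test and 1 by limma with an intensity trend and robust variances, Csmd1 in both. The LPE test with unadjusted p, an alternative chosen after seeing the data, called 526 probes in all (281 higher, 245 lower), 6 complement probes and 2 further complement genes. Leaving out 1 array at a time gave 117 to 188 called probes in all (58 to 89 higher, 59 to 99 lower), 3 to 3 complement probes, 0 to 1 further complement genes (1 without the first wild-type array, again Csmd1) and 5 to 6 neighbours. The fewest called probes in all, 117, came without the fourth wild-type array, and there were 131 without the second and 129 without the third. The log2 fold change of C1qa ran from -0.0251 to 0.42 and that of C1qb from -0.18 to 0.29, both negative without the third array labelled Mrp4-null. The cause of these shifts was not tested. Values of single probes kept their sign and side of the threshold in 360 comparisons with an alternative, fell short of it in 26, passed it anew in 3 and changed sign in 2. Low signal limits Cfb, Cfd and the wild-type level of Masp2.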

Other observations

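Markers of microglia did not all stand alike on the third array labelled Mrp4-null. Cd68, a lysosomal protein of active phagocytes, was above the mean of the other 7 arrays there by 2.04 and 1.60 in its 2 probes, Fcer1g, the common Fc receptor chain, by 1.51, Laptm5 by 1.25, Aif1, the calcium-binding protein IBA1, by 1.15, Ctss, cathepsin S, by 1.15 and Tyrobp, the adaptor DAP12, by 1.09. Trem2 stood 0.80 above. Markers of resting microglia were nearer to the other arrays, with differences of 0.60 and 0.39 for the 2 probes of Cx3cr1, 0.46 for Fcrls, 0.44 for Tmem119, 0.25 for Siglech and -0.26 for P2ry12. These are single values of 1 array, with no test, and limma called none of these genes between the genotypes.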
